A study of Mus musculus with 21 samples.

Results

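A set of 10 enzymes that hydroxylate and crosslink collagen, out of 53801 gene rows in each library, are described here across infarcted, treated and sham-operated mouse hearts and, separately, in cultured cardiac fibroblasts. They were chosen by name: the lysyl oxidases Lox, Loxl1, Loxl2, Loxl3 and Loxl4, the lysyl hydroxylases Plod1, Plod2 and Plod3, and the prolyl 4-hydroxylase catalytic subunits P4ha1 and P4ha3. All 10 were found in 1 row each, and all 10 passed the filter on low counts in both experiments.

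Collagen chains are modified in the endoplasmic reticulum before they fold. Prolyl 4-hydroxylases stabilise the triple helix, lysyl hydroxylases mark the lysines that will later be joined or glycosylated, and after secretion the lysyl oxidases turn lysines of collagen and elastin into reactive aldehydes that form covalent crosslinks. In the heart, this chemistry sets how stiff and how durable the scar after an infarct becomes, and fibroblasts are its main source.

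The series asked whether Fap (a serine protease on the surface of activated fibroblasts) takes part in repair after myocardial infarction (MI). Hearts were sampled 7 days after surgery, from tissue labelled border zone, the muscle beside the infarct. FAPI hearts (4 libraries) were infarcted and carry the label FAPI, taken to mean a Fap inhibitor after the title of the series. FapKO hearts (4 libraries) were infarcted and had the Fap knockout genotype. MI hearts (4 libraries) were infarcted without either, and sham hearts (3 libraries) had a sham operation. Not given in the sources used here are strain, age, sex, the way the knockout was made, and the identity and amount of the inhibitor. For the culture experiment, cardiac fibroblasts from mouse ventricles grew for 7 days in 5% GelMA, a hydrogel made from gelatin. Co-culture fibroblasts (3 libraries) grew with endothelial cells of heart and lung and were then sorted as Pdgfra-positive cells lacking the leukocyte marker CD45 and the endothelial marker CD31. 3D-culture fibroblasts (3 libraries) grew alone and were extracted without a sort, so that partner cells and sorting cannot be told apart. The fibroblast libraries are called biological replicates by the submitters. Nothing in the labels says that the hearts of a group were separate animals, so the spread behind each p-value is that between libraries and may be technical.

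Libraries held 18474138 to 37287355 gene counts in hearts, 4735337 to 6346015 in co-culture and 12871240 to 15650221 in 3D-culture fibroblasts. Levels below are CPM, the counts of a gene scaled to a common library size with TMM, which sets library sizes from the bulk of genes. Fap itself stood at 6.46 to 10.4 CPM in FAPI, 1.79 to 2.36 CPM in FapKO, 9.39 to 13.2 CPM in MI and 2.71 to 3.86 CPM in sham hearts, so that FapKO hearts lay below every MI heart. The summed level of 13 cardiomyocyte markers, all of which had counts in every heart group, was 34806 to 61536 CPM in FAPI, 50926 to 61018 CPM in FapKO, 11087 to 32827 CPM in MI and 88964 to 101436 CPM in sham hearts. The 8 fibroblast markers summed to 3722 to 4494 CPM in FAPI, 3124 to 3877 CPM in FapKO, 3725 to 4226 CPM in MI and 1941 to 2108 CPM in sham hearts. The 9 macrophage markers summed to 4486 to 8188 CPM in FAPI, 2737 to 5303 CPM in FapKO, 6863 to 9633 CPM in MI and 1864 to 2096 CPM in sham hearts. In such bulk tissue, fewer cells of a type and less RNA per cell cannot be told apart. The 5 neutrophil markers summed to 101 to 773 CPM in MI hearts, with the highest value in replicate 2.

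Per kilobase of exon, the order of the enzymes in MI hearts began with Loxl1, at 71.3 ± 8.93 CPM per kb, and Lox, at 49.8 ± 4.37 CPM per kb (SD, n = 4). Plod2, P4ha3, Loxl3, P4ha1, Plod1 and Plod3 followed within a narrow band of 8.25 to 10.6 CPM per kb, where neighbours in the order did not differ beyond their spread. Loxl2 stood at 6.29 ± 1.03 CPM per kb and Loxl4 last at 0.16 ± 0.06 CPM per kb. In sham hearts Loxl1 again led, at 17.1 ± 1.86 CPM per kb, but Plod1 came next at 8.97 ± 1.06 CPM per kb, ahead of Lox at 6.98 ± 1.59 CPM per kb (SD, n = 3). FapKO hearts kept Loxl1 at 50.2 ± 4.51 CPM per kb and Lox at 21.5 ± 3.19 CPM per kb in front, with Plod1 next at 8.92 ± 0.78 CPM per kb. These orders depend on the division by exon length, and whether the counts rise with exon length was not tested. In CPM, Lox and Loxl1 averaged 238 ± 20.9 and 235 ± 29.4 in MI hearts, and Plod1 and Loxl1 averaged 60.7 ± 7.19 and 56.3 ± 6.14 in sham hearts.

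MI hearts against sham hearts gave the response of these enzymes to infarction. All 5 lysyl oxidases, the lysyl hydroxylases Plod2 and Plod3 and both prolyl 4-hydroxylase subunits rose, and the lysyl hydroxylase Plod1 did not pass the test. That is 9 of 10 called higher by the quasi-likelihood F test of edgeR, with p-values adjusted after Benjamini and Hochberg over all 17064 genes tested and a threshold of 0.05. Of all genes tested, 37.1% were called higher and 32.0% lower, 69.1% in all. The ranges of the groups were apart for the same 9, against 67.5% of all genes. The median log2 fold change was 2.00 over the 10 enzymes and 0.14 over all genes.

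Lox, the founding lysyl oxidase, on mouse chromosome 18 (mm10, 52516067 to 52529867, minus strand), had 219, 246, 222 and 264 CPM in MI hearts, against 25.4, 34.1 and 40.5 CPM in sham hearts. Every MI heart was far above every sham heart, and the log2 fold change was 2.83 ± 0.18 (SE, adjusted p = 3.2e-09). Loxl1, an oxidase known for the upkeep of elastic fibres (chromosome 9, 58287738 to 58313186), had 222, 278, 226 and 213 CPM in MI hearts, against 50.1, 56.4 and 62.4 CPM in sham hearts. Its groups lay as clearly apart, at a smaller log2 fold change of 2.06 ± 0.14 (adjusted p = 5.5e-09). Loxl3, a relative known in mice for palate and spine formation (chromosome 6, 83034173 to 83052562), had 61.5, 43.3, 35.0 and 44.6 CPM in MI hearts, against 6.35, 7.71 and 6.55 CPM in sham hearts. MI replicate 1 was the highest and no heart crossed into the other group, differing by 2.75 ± 0.19 on the log2 scale (adjusted p = 5.2e-09). Loxl2, which also acts on basement membrane collagen (chromosome 14, 69609068 to 69695834), had 33.6, 41.8, 31.8 and 28.8 CPM in MI hearts, against 7.58, 6.60 and 8.41 CPM in sham hearts, giving 2.18 ± 0.25 on the log2 scale (adjusted p = 9.9e-07). Loxl4 (chromosome 19, 42593982 to 42612813) was barely present. It had 15 to 33 counts per library in MI hearts and 2 or 3 in sham hearts, and its log2 fold change of 1.94 had an approximate 95% interval of 0.92 to 2.95 (adjusted p = 0.0033).

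**Figure D1:**
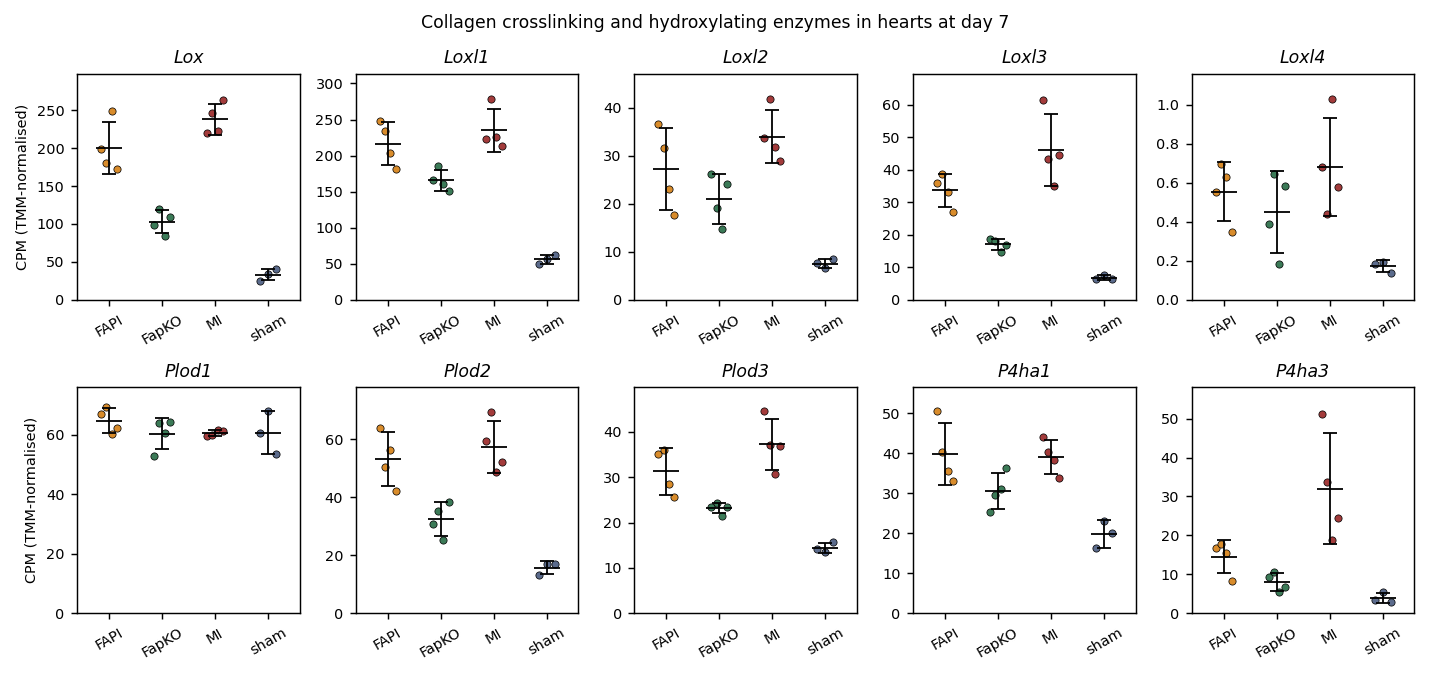
TMM-normalised CPM of each enzyme in every heart library, by group, with the mean and SD as bars. Lox at 219 to 264 CPM in MI hearts is far above 25.4 to 40.5 CPM in sham hearts, FapKO hearts lie between, and Plod1 overlaps between all 4 groups.

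Among the lysyl hydroxylases, Plod2, which modifies the telopeptide lysines that give the stable crosslinks of scar collagen (chromosome 9, 92542223 to 92608428), had 59.2, 69.2, 48.8 and 52.3 CPM in MI hearts, against 13.2, 17.1 and 16.8 CPM in sham hearts. The groups were apart, differing by 1.87 ± 0.18 on the log2 scale (adjusted p = 1.4e-07). Plod3, a hydroxylase that also attaches sugars to hydroxylysine (chromosome 5, 136987019 to 136996648), had 44.5, 37.0, 30.7 and 36.8 CPM in MI hearts, against 14.2, 13.5 and 15.6 CPM in sham hearts, a difference of 1.37 ± 0.14 on the log2 scale (adjusted p = 2.9e-07). Plod1, which hydroxylates lysines within the helix (chromosome 4, 147909753 to 147936767), had 59.5, 59.9, 61.4 and 61.2 CPM in MI hearts, against 60.6, 67.9 and 53.5 CPM in sham hearts. MI hearts fell inside the sham range, and the log2 fold change of -0.00 had an approximate 95% interval of -0.20 to 0.19 (adjusted p = 0.98).

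The prolyl 4-hydroxylase subunits differed from each other in size of change. P4ha3, a minor catalytic subunit (chromosome 7, 100285520 to 100319699), had 51.3, 33.6, 18.8 and 24.5 CPM in MI hearts, against 3.51, 5.36 and 2.89 CPM in sham hearts. Its log2 fold change was 3.03 ± 0.38 (adjusted p = 2.4e-06), and MI hearts varied widely among themselves. That value was above the 2.83 of Lox, but without MI replicate 1 it was 2.71, against 2.87 for Lox, and without sham replicate 3 it was 2.86, against 2.998 for Lox. P4ha1, the main catalytic subunit (chromosome 10, 59323296 to 59373304), had 44.1, 40.3, 38.3 and 33.8 CPM in MI hearts, against 16.4, 23.2 and 19.99 CPM in sham hearts, a difference of 0.98 ± 0.16 on the log2 scale (adjusted p = 5.8e-05). P4ha2, the other catalytic subunit, averaged 51.6 ± 4.05 CPM in MI hearts and 40.0 ± 1.34 CPM in sham hearts, differing by 0.37 ± 0.12 on the log2 scale (adjusted p = 0.014). P4hb, the disulfide isomerase that completes the enzyme, averaged 249 ± 40.1 CPM in MI hearts and 115 ± 1.47 CPM in sham hearts, differing by 1.12 ± 0.14 on the log2 scale (adjusted p = 3.1e-06; SD, n = 4 and 3).

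The RefSeq sequence upstream of the start site (GRCm38.p6) was at hand for 5 of the 10 enzymes, and 4 are shown because they span the range of the infarct response, with P4ha3 and P4ha1 higher, Plod3 higher and Plod1 not past the test. Each line gives the 250 bases before the start, 5′ to 3′ on the gene's strand. Capitals mark ACGTG and GCGTG on either strand (CACGT and CACGC on the strand shown), the core letters bound by hypoxia-inducible factors, which are known to drive several collagen hydroxylases.
P4ha3 (chr7:100285270-100285519, plus strand): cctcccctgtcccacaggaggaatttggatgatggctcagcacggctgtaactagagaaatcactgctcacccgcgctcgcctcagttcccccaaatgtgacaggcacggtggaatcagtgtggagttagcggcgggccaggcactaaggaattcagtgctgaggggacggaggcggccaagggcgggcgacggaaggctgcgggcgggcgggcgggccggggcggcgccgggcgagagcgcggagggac
P4ha1 (chr10:59323046-59323295, plus strand): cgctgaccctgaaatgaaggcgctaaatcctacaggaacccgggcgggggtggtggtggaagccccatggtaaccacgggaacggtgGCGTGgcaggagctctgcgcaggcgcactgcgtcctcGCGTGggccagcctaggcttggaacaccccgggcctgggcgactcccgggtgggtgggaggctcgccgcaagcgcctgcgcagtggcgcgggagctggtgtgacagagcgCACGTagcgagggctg
Plod3 (chr5:136986769-136987018, plus strand): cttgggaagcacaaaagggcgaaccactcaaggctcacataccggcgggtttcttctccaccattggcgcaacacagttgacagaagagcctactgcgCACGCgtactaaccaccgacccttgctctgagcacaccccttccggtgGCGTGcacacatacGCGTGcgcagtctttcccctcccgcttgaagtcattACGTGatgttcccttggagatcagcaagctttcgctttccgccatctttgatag
Plod1 (chr4:147936777-147937026, minus strand): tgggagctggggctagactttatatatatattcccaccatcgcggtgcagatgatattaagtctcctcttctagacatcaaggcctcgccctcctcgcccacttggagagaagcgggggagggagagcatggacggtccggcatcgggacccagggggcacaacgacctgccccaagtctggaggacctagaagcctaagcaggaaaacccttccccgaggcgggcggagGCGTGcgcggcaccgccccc

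P4ha1 held 3 matches and Plod3 held 4, Plod1 held 1 and P4ha3 held 0. Loxl4, whose window is not shown, held 1. Among all 32851 windows of the same length, 38.6% held at least 1 of these motifs, 16.6% ACGTG and 28.2% GCGTG. A match is a description of letters, and 0 matches says only that these letters are not in this window. Of 18 genes known to be raised by hypoxia, 7 were higher and 9 lower in MI than in sham hearts. Pfkfb3, a glycolytic regulator, averaged 5.53 ± 0.98 CPM in MI hearts and 1.91 ± 0.23 CPM in sham hearts, whereas Egln1, an oxygen sensor, averaged 19.4 ± 3.41 CPM in MI hearts and 54.0 ± 2.13 CPM in sham hearts (SD, n = 4 and 3).

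The substrates rose with the enzymes. All 8 fibrillar collagens were called higher in MI hearts, at a median log2 fold change of 2.65, with Col5a2 at 477 ± 50.4 CPM in MI hearts and 70.0 ± 12.8 CPM in sham hearts, and Col3a1 at 3104 ± 411 CPM in MI hearts and 506 ± 53.7 CPM in sham hearts. Of 16 other genes of collagen maturation in the endoplasmic reticulum, 13 were higher and 1 lower. P3h3, a prolyl 3-hydroxylase family member, averaged 28.3 ± 4.62 CPM in MI hearts and 7.03 ± 0.67 CPM in sham hearts, and Creb3l1, a transcription factor of collagen secretion, averaged 12.5 ± 0.57 CPM in MI hearts and 3.66 ± 0.24 CPM in sham hearts. Of 7 tested genes of procollagen processing, 4 were higher and 1 lower. Bmp1, the protease that removes the C-propeptide and also activates pro-Lox, averaged 81.9 ± 10.2 CPM in MI hearts and 18.7 ± 1.14 CPM in sham hearts, and Adamts2, the N-propeptidase, averaged 146 ± 21.7 CPM in MI hearts and 33.1 ± 4.30 CPM in sham hearts. Of 8 substrates and partners of lysyl oxidase, 7 were higher, among them elastin (Eln), at 517 ± 48.3 CPM in MI hearts and 91.6 ± 15.1 CPM in sham hearts, and periostin (Postn), at 1130.2 ± 276 CPM in MI hearts and 175 ± 22.7 CPM in sham hearts (SD, n = 4 and 3).

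Cardiomyocyte markers moved with the group. Their sums did not overlap between MI and sham hearts, so that group and marker level cannot be told apart. When their level entered the model as a covariate, 3 of the 10 enzymes were called in MI against sham hearts (612 of all genes). These were Lox (2.06, adjusted p = 0.013), Loxl1 (1.64, adjusted p = 0.020) and Loxl3 (1.61, adjusted p = 0.044), in log2 fold change. P4ha3 then stood at 0.44 (adjusted p = 0.81). Fibroblast marker sums did not overlap between MI and sham hearts either. With the fibroblast marker level instead, 7 enzymes were called (3813 of all genes), P4ha1 (1.14, adjusted p = 0.13) and Loxl4 (1.11, adjusted p = 0.57) not among them. Mural cell markers also moved with the group, 6 of 8 higher and 2 lower in MI hearts, with sums of 834 to 1409 CPM in MI and 732 to 802 CPM in sham hearts, and their part in the result was not tested. With total-count scaling, which moved the median of all genes from 0.14 to 1.23, Plod1 was called higher (1.09, adjusted p = 3.2e-07), and 86.1% of called genes were higher instead of 53.7%.

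FapKO hearts against MI hearts asked what the enzymes did after infarction in hearts of the knockout genotype, where Fap RNA was lower but still counted, at 46 to 68 counts per library in FapKO and 285 to 513 in MI hearts. Lox, Loxl1, Loxl2, Loxl3, Plod2, Plod3 and P4ha3 fell, while Loxl4, Plod1 and P4ha1 did not pass the test. That is 7 of 10 called lower and 0 higher, against 26.0% and 25.0% of all genes tested (51.0% in all), at a median log2 fold change of -0.69 over the enzymes and -0.08 over all genes. The ranges of the groups were apart for the same 7, against 45.4% of all genes.

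P4ha3 had 9.23, 10.6, 5.56 and 6.79 CPM in FapKO hearts, against 18.8 to 51.3 CPM in MI hearts. All FapKO hearts were below all MI hearts, and its log2 fold change was -1.995 ± 0.31 (SE, adjusted p = 5.6e-05, edgeR). Loxl3 had 18.6, 18.1, 14.6 and 16.7 CPM in FapKO hearts, against 35.0 to 61.5 CPM in MI hearts, a difference of -1.44 ± 0.15 on the log2 scale (adjusted p = 2.1e-06). Lox had 98.3, 119, 83.9 and 109 CPM in FapKO hearts, against 219 to 264 CPM in MI hearts, a difference of -1.21 ± 0.15 on the log2 scale (adjusted p = 1.0e-05). The 4 FapKO hearts thus held less than the lowest MI heart for each of these 3 genes.

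The other falls were smaller. Plod2 had 30.7, 35.4, 25.2 and 38.4 CPM in FapKO hearts, against 48.8 to 69.2 CPM in MI hearts (log2 fold change -0.82 ± 0.15, adjusted p = 3.3e-04). Plod3 had 23.5, 24.4, 21.5 and 23.4 CPM in FapKO hearts, against 30.7 to 44.5 CPM in MI hearts (-0.68 ± 0.12, adjusted p = 2.3e-04). Loxl2 had 26.1, 19.1, 14.7 and 24.1 CPM in FapKO hearts, against 28.8 to 41.8 CPM in MI hearts (-0.70 ± 0.21, adjusted p = 0.010). For all 3 genes the groups were apart, although by little for Loxl2. Loxl1 had 166, 186, 161 and 150.3 CPM in FapKO hearts, against 213 to 278 CPM in MI hearts, a difference of -0.51 ± 0.12 on the log2 scale (adjusted p = 0.0026). Plod1 had 52.8, 63.9, 60.6 and 64.1 CPM in FapKO hearts and 59.5 to 61.4 CPM in MI hearts, a log2 fold change of -0.00 with an approximate 95% interval of -0.18 to 0.18 (adjusted p = 0.98). P4ha1 had 25.3, 29.5, 31.1 and 36.4 CPM in FapKO hearts, against 33.8 to 44.1 CPM in MI hearts. The groups overlapped by 1 FapKO heart, replicate 4, and the log2 fold change was -0.35 ± 0.15 (adjusted p = 0.052). P4ha1 was called lower under 8 of 19 alternative settings. These included leaving out FapKO replicate 4 (-0.45, adjusted p = 0.024) or MI replicate 4 (-0.42, adjusted p = 0.035). A fit of FapKO and MI hearts alone called it without a block and with the replicate number as a block. That block, chosen after seeing the data, gave -0.36 (adjusted p = 0.0497). The other settings were both alternative filters on low counts, limma-voom and total-count scaling. Loxl4 had 5 to 19 counts per library in FapKO hearts and 15 to 33 in MI hearts (-0.58, approximate 95% interval -1.27 to 0.11).

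**Figure D2:**
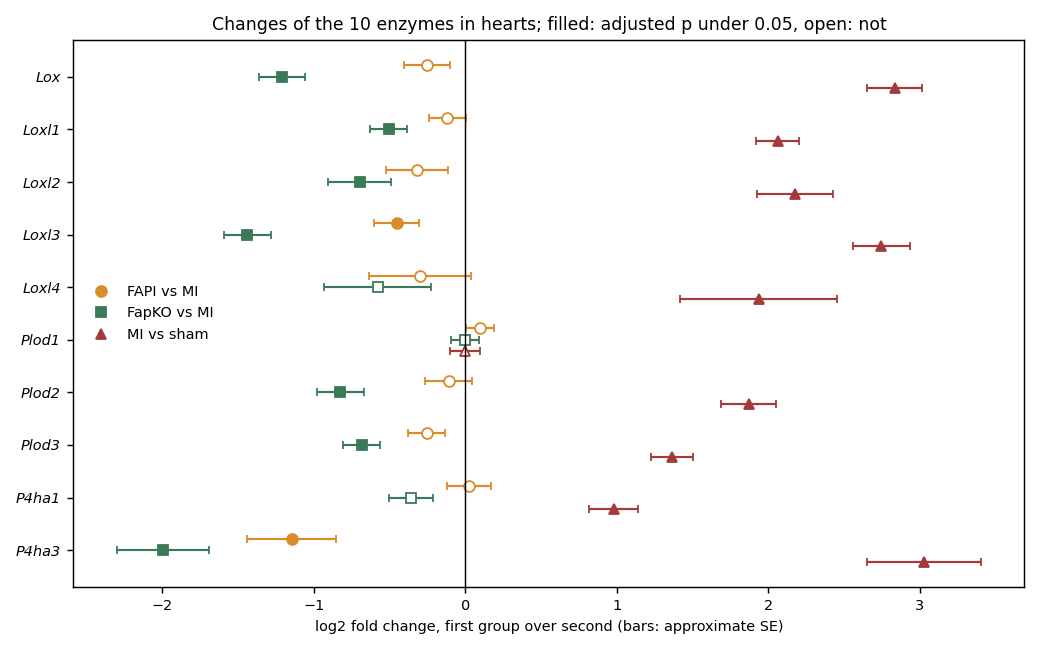
Log2 fold change of each enzyme with its approximate SE in FAPI against MI, FapKO against MI and MI against sham hearts. Filled symbols are past an adjusted p of 0.05 and open ones are not. FapKO hearts show falls down to -1.995 (P4ha3), FAPI hearts 2 falls past the threshold, and Plod1 is near 0 in all 3.

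The partner genes moved with the enzymes. In FapKO against MI hearts, 7 of 8 fibrillar collagens were lower, including Col11a1 at 18.8 ± 3.73 CPM in FapKO hearts and 85.2 ± 30.7 CPM in MI hearts, and Col5a2 at 208 ± 14.4 CPM in FapKO hearts and 477 ± 50.4 CPM in MI hearts. Of 16 other maturation genes, 12 were lower and 1 higher. Creb3l1 averaged 6.04 ± 0.66 CPM in FapKO hearts and 12.5 ± 0.57 CPM in MI hearts, and P3h3 averaged 15.01 ± 1.58 CPM in FapKO hearts and 28.3 ± 4.62 CPM in MI hearts. P4hb fell by 0.75 on the log2 scale (adjusted p = 1.5e-04) and P4ha2 fell by 0.28 (adjusted p = 0.048). Of the 7 processing genes, 4 were lower, among them Bmp1 at 40.0 ± 4.65 CPM in FapKO hearts and 81.9 ± 10.2 CPM in MI hearts, and Adamts2 at 95.3 ± 6.39 CPM in FapKO hearts and 146 ± 21.7 CPM in MI hearts. Of the 8 substrates and partners, 7 were lower and 1 higher. Thrombospondin 1 (Thbs1) averaged 61.9 ± 10.1 CPM in FapKO hearts and 205 ± 57.2 CPM in MI hearts, and Efemp2, a fibulin that tethers pro-Lox to elastin, averaged 40.4 ± 5.80 CPM in FapKO hearts and 83.9 ± 12.95 CPM in MI hearts (SD, n = 4 each). Of the 18 hypoxia-induced genes, 9 were higher and 5 lower.

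The cardiomyocyte marker sum of FapKO hearts did not overlap that of MI hearts. Of the other marker lists, 8 of 9 macrophage markers were lower in FapKO than in MI hearts, as were all 4 tested of 5 neutrophil markers, which summed to 51.7 to 62.9 CPM in FapKO and 101 to 773 CPM in MI hearts. Mural cell markers were lower for 5 of 8 and higher for 2, with sums of 566 to 712 CPM in FapKO and 834 to 1409 CPM in MI hearts, and endothelial markers were higher for 4 of 8. The part of these markers in the result was not tested. With the marker level as a covariate, 0 of the 10 enzymes were called by edgeR, 0 also at an unadjusted p under 0.05 (adjusted p = 0.64 to 0.996, 91 of all genes called), so group and marker level cannot be told apart in these hearts, whereas with the fibroblast marker level as a covariate 7 were called (7159 of all genes). With total-count scaling, which moved the median of all genes from -0.08 to -0.63, all 10 were called (12531 of all genes, against 8700 with TMM), Plod1 at -0.55 and P4ha1 at -0.90, and 16.6% of called genes were higher instead of 49.1%.

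FAPI hearts against MI hearts asked what the inhibitor label went with. P4ha3 and Loxl3 fell and the other 8 enzymes did not pass the test, so that 2 of 10 were called lower and 0 higher, against 11.9% and 17.9% of all genes tested (29.8% in all). The median log2 fold change was -0.25 over the enzymes and -0.03 over all genes. This comparison shares its MI hearts with FapKO against MI.

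P4ha3 had 16.8, 17.7, 15.4 and 8.23 CPM in FAPI hearts, against 18.8 to 51.3 CPM in MI hearts. It was the only enzyme of the 10 with groups apart, against 26.1% of all genes, and FAPI replicate 4 was the lowest. Its log2 fold change was -1.14 ± 0.29 (SE, adjusted p = 0.0080, edgeR), and leaving out 1 library at a time gave adjusted p of 0.0016 to 0.035. Loxl3 had 36.0, 38.8, 33.01 and 27.0 CPM in FAPI hearts, against 61.5, 43.3, 35.0 and 44.6 CPM in MI hearts, a difference of -0.45 ± 0.15 on the log2 scale (adjusted p = 0.031). The groups overlapped, and the call was lost without MI replicate 1 (-0.28, adjusted p = 0.12), without FAPI replicate 4 (-0.36, adjusted p = 0.11) or without FAPI replicate 3 (-0.44, adjusted p = 0.055).

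Lox had 198, 179.8, 249 and 173 CPM in FAPI hearts, against 219 to 264 CPM in MI hearts. FAPI replicate 3 was inside the MI range and the other 3 FAPI hearts were below it, and the log2 fold change of -0.25 had an approximate 95% interval of -0.55 to 0.05 (adjusted p = 0.23). Loxl1 had 247, 235, 204 and 181 CPM in FAPI hearts, against 213 to 278 CPM in MI hearts, with an interval of -0.36 to 0.12 around -0.12. Plod2 had 64.0, 50.4, 56.3 and 42.0 CPM in FAPI hearts, against 48.8 to 69.2 CPM in MI hearts, with an interval of -0.41 to 0.19 around -0.11. For both genes the groups overlapped. Plod1 had 66.9, 69.4, 60.2 and 62.0 CPM in FAPI hearts, against 59.5 to 61.4 CPM in MI hearts, with an interval of -0.09 to 0.28 around 0.09. Plod3 had 35.0, 36.0, 28.4 and 25.5 CPM in FAPI hearts, against 30.7 to 44.5 CPM in MI hearts (-0.26, interval -0.49 to -0.02, adjusted p = 0.13), and was called without MI replicate 3 (-0.34, adjusted p = 0.040). Loxl2 had 36.7, 31.6, 23.2 and 17.7 CPM in FAPI hearts, against 28.8 to 41.8 CPM in MI hearts (-0.32, interval -0.72 to 0.08). P4ha1 had 50.6, 40.3, 35.6 and 33.002 CPM in FAPI hearts, against 33.8 to 44.1 CPM in MI hearts (0.03, interval -0.26 to 0.31). Loxl4 had 12 to 21 counts per library in FAPI hearts and 15 to 33 in MI hearts (-0.30, interval -0.96 to 0.36). FAPI replicate 4 was the lowest FAPI heart in CPM for 9 of the 10 enzymes, and replicate 3 for Plod1.

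Of the partner lists, 5 of 8 fibrillar collagens were lower in FAPI than in MI hearts, with Col1a2 at 2898 ± 658 CPM in FAPI hearts and 5061 ± 999 CPM in MI hearts, and Col5a1 at 112 ± 21.7 CPM in FAPI hearts and 184 ± 44.1 CPM in MI hearts. Of the 16 other maturation genes, 5 were lower and 1 higher, with Creb3l1 at 8.35 ± 0.90 CPM in FAPI hearts and 12.5 ± 0.57 CPM in MI hearts, and Crtap, a partner of the prolyl 3-hydroxylase, at 50.4 ± 9.25 CPM in FAPI hearts and 73.1 ± 6.96 CPM in MI hearts (SD, n = 4 each). P4ha2 and P4hb did not pass, at 0.13 (adjusted p = 0.41) and -0.31 (adjusted p = 0.082). Bmp1 and Adamts2 were 2 of the 7 processing genes called lower, at log2 fold changes of -0.54 and -0.37, and Efemp2 and Fbln5, a pair of elastic fibre fibulins, were 2 of the 8 lysyl oxidase partners, at -0.75 and -0.53. Of the hypoxia-induced genes, 9 of 18 were higher and 1 lower, with Pdk1, a mitochondrial kinase, at 30.3 ± 4.58 CPM in FAPI hearts and 14.5 ± 3.43 CPM in MI hearts, and Egln3, an oxygen sensor, at 28.3 ± 6.56 CPM in FAPI hearts and 10.0 ± 4.55 CPM in MI hearts.

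Cardiomyocyte marker sums did not overlap between FAPI and MI hearts either, and with that level as a covariate P4ha3 stood at 0.36 and Loxl3 at 0.21 (adjusted p = 0.99 and 0.98), so that 0 of 10 were called by edgeR (1 at an unadjusted p under 0.05, and 23 of all genes called). Macrophage markers were lower in FAPI than in MI hearts for 5 of 9, and neutrophil markers for all 4 tested of 5, with sums of 39.3 to 65.9 CPM in FAPI and 101 to 773 CPM in MI hearts. Mural cell markers were lower for 4 of 8 and higher for 2, with sums of 566 to 852 CPM in FAPI and 834 to 1409 CPM in MI hearts. Their part in the result was not tested. With total-count scaling, which moved the median of all genes from -0.03 to -0.44, 8 of 10 were called lower (9933 of all genes called, against 5081 with TMM), and 14.6% of called genes were higher instead of 60.1%.

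FAPI hearts were also set directly against FapKO hearts, which gave 5 of 10 enzymes called higher and 0 lower, against 7.05% and 6.12% of all genes tested (13.2% in all). These were Lox, Loxl3, Plod2, Plod3 and Loxl1. The median log2 fold change was 0.41 over the enzymes and 0.02 over all genes, and the groups were apart for 4 enzymes, against 18.6% of all genes. Lox, at 173 to 249 CPM in FAPI hearts and 83.9 to 119 CPM in FapKO hearts, differed by 0.96 ± 0.15 on the log2 scale (adjusted p = 8.2e-04, edgeR). Loxl3, at 27.0 to 38.8 CPM in FAPI hearts and 14.6 to 18.6 CPM in FapKO hearts, differed by 0.98 ± 0.15 (adjusted p = 6.7e-04). Plod2, at 42.0 to 64.0 CPM in FAPI hearts and 25.2 to 38.4 CPM in FapKO hearts, differed by 0.71 ± 0.15 (adjusted p = 0.0067). In all 3 genes every FAPI heart was above every FapKO heart.

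Plod3 (0.43 ± 0.12, adjusted p = 0.030) and Loxl1 (0.39 ± 0.12, adjusted p = 0.046) were called with less margin. Plod3 was lost without FAPI replicate 1 (0.37) or 2 (0.34) or without FapKO replicate 1 (0.44), 3 (0.39) or 4 (0.43), at adjusted p of 0.057 to 0.097. Loxl1 was lost without FAPI replicate 1 (0.32), 2 (0.34) or 3 (0.42) or without FapKO replicate 1 (0.39), 3 (0.37) or 4 (0.34), at adjusted p of 0.076 to 0.15. P4ha3, at 8.23 to 17.7 CPM in FAPI hearts and 5.56 to 10.6 CPM in FapKO hearts, differed by 0.85 ± 0.30 on the log2 scale (adjusted p = 0.073), and was called without FAPI replicate 4 (1.05, adjusted p = 0.022), as was P4ha1 (0.46, adjusted p = 0.044). P4ha2 (0.41, adjusted p = 0.025) and P4hb (0.45, adjusted p = 0.030) were higher in FAPI hearts. Of the other lists, 2 of 8 fibrillar collagens, 5 of 16 maturation genes, 1 of 7 processing genes and 4 of 8 lysyl oxidase partners were higher, and 0, 1, 0 and 1 were lower. Macrophage markers moved with these enzymes, with 5 of 9 higher in FAPI hearts and sums of 4486 to 8188 CPM in FAPI hearts and 2737 to 5303 CPM in FapKO hearts, and their part in the result was not tested. With total-count scaling 67.9% of called genes were higher instead of 53.5%, and in the model holding the cardiomyocyte marker level 3 enzymes were called (1209 of all genes).

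Against sham hearts, FAPI and FapKO hearts were higher for most enzymes. FAPI hearts had 9 of 10 enzymes called higher and 0 lower, against 29.2% and 26.5% of all genes tested (55.8% in all), and 9 with groups apart, against 57.5% of all genes, with log2 fold changes of 2.58 ± 0.18 for Lox and 1.88 ± 0.37 for P4ha3. Plod1 was the exception (0.09, adjusted p = 0.46). Loxl4 was called at 1.64 (adjusted p = 0.015), but not without sham replicate 3 (1.51, adjusted p = 0.053). Cardiomyocyte and fibroblast marker sums of FAPI and of FapKO hearts did not overlap those of sham hearts. Models holding a marker level therefore cannot tell group and marker level apart here. In the model holding the cardiomyocyte marker level, 7 enzymes were called in FAPI hearts (4435 of all genes), without P4ha3 (0.80, adjusted p = 0.17) and Loxl4 (1.97, adjusted p = 0.051). In the model holding the fibroblast marker level, 7 were called (834 of all genes), without P4ha1 (1.16, adjusted p = 0.17) and Loxl4 (0.85, adjusted p = 0.71). FapKO hearts had 8 of 10 called higher and 0 lower, against 19.2% and 20.3% of all genes tested (39.5% in all), and the same 8 with groups apart, against 46.8% of all genes, with 1.63 ± 0.17 for Lox and 1.56 ± 0.14 for Loxl1. P4ha3, at 5.56 to 10.6 CPM in FapKO hearts and 2.89 to 5.36 CPM in sham hearts, was called at 1.03 ± 0.37 (adjusted p = 0.037, edgeR). It was lost without FapKO replicate 1 (0.96) or 2 (0.87) or without sham replicate 1 (0.96) or 3 (0.86), at adjusted p of 0.075 to 0.13. Loxl4 was not called (1.36, adjusted p = 0.059), and was without FapKO replicate 3 (1.62, adjusted p = 0.016). In FapKO hearts 4 enzymes were called in the model holding the fibroblast marker level (418 of all genes), where Lox was lost (1.04, adjusted p = 0.15), as were Plod2 (1.25, adjusted p = 0.13), P4ha1 (0.75, adjusted p = 0.31) and P4ha3 (2.51, adjusted p = 0.085). With the cardiomyocyte marker level 6 were called (4159 of all genes), without P4ha1 (0.50, adjusted p = 0.064) and P4ha3 (0.40, adjusted p = 0.41). The higher share of called genes was 86.8% with total-count scaling and 52.4% with TMM in FAPI against sham hearts, and 91.8% and 48.7% in FapKO against sham hearts.

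Enzyme RNA was next set against the RNA of the main substrates, as counts per 1000 counts of Col1a1, Col1a2 and Col3a1 in the same library. In MI against sham hearts 6 of 10 fell and 0 rose, against 89.2% of all genes called lower on this scale, 89.3% called either way. The 3 collagen genes took 1.38% to 2.64% of counts in MI hearts and 0.107% to 0.145% in sham hearts. Plod1 fell most, to 4.54, 3.51, 5.52 and 5.59 per 1000 collagen counts in MI hearts, against 35.6, 30.002 and 26.1 in sham hearts (log2 fold change -2.67 ± 0.26, adjusted p = 1.2e-09, edgeR). P4ha1 had 2.36 to 3.44 in MI hearts and 9.62 to 10.3 in sham hearts (-1.69 ± 0.23, adjusted p = 3.3e-07). Lox did not pass the test, at 16.7, 14.4, 19.98 and 24.1 in MI hearts, against 14.9, 15.1 and 19.8 in sham hearts, with an approximate 95% interval of -0.33 to 0.69 around a log2 fold change of 0.18. Loxl3 (0.07, interval -0.38 to 0.52) and P4ha3 (0.33, interval -0.22 to 0.88) likewise did not pass. Set against 8 fibroblast markers in place of collagen, these 3 were higher in MI hearts, at 1.87, 1.78 and 2.08 for Lox, Loxl3 and P4ha3 (adjusted p = 4.6e-08, 4.8e-07 and 8.1e-05). Of the 6 that fell per collagen, Loxl1 (1.10, adjusted p = 7.2e-06), Loxl2 (1.22, adjusted p = 2.9e-04), Plod2 (0.91) and Plod3 (0.40) were higher on that scale as well. Per collagen, the call of Loxl1 (-0.63) was lost without sham replicate 3 (-0.57, adjusted p = 0.062) or with no filter on low counts (adjusted p = 0.071). Loxl2 (-0.54) was lost without MI replicate 1 (-0.53, adjusted p = 0.054), sham replicate 1 (-0.42, adjusted p = 0.13) or sham replicate 3 (-0.48, adjusted p = 0.094). It was also lost with no filter on low counts (adjusted p = 0.082).

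**Figure D3:**
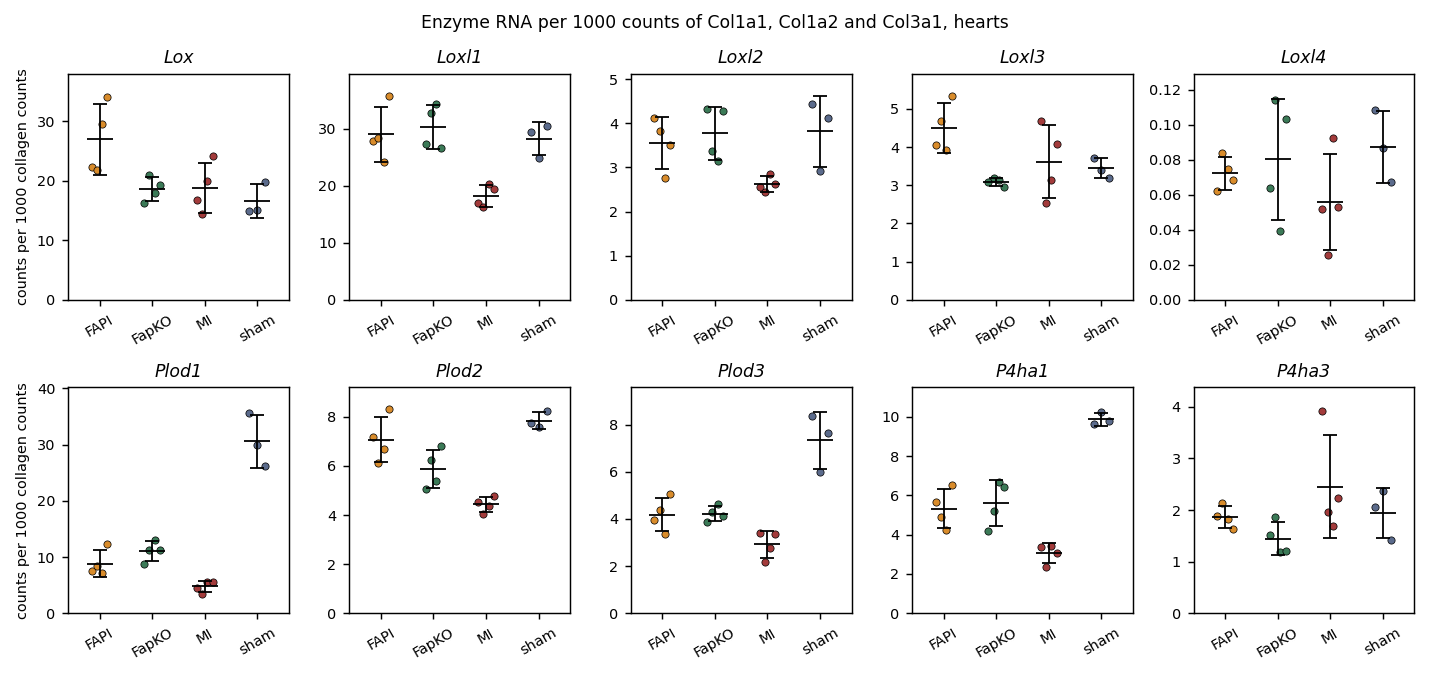
Counts of each enzyme per 1000 counts of Col1a1, Col1a2 and Col3a1 in every heart library, with the mean and SD as bars. Plod1 and P4ha1 lie far lower in MI than in sham hearts and Lox does not, and the Lox values of FapKO hearts lie within the MI range.

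In FapKO against MI hearts, Lox did not pass the test, at 16.2, 21.04, 17.99 and 19.3 per 1000 collagen counts in FapKO hearts, against 14.4 to 24.1 in MI hearts (-0.01, interval -0.48 to 0.45). Set against 8 fibroblast markers in place of collagen, Lox was lower in FapKO hearts (-0.96, adjusted p = 1.3e-04), as were Loxl3 (-1.20, adjusted p = 3.1e-05) and Plod2 (-0.58, adjusted p = 0.011). Per collagen, P4ha3 was the 1 enzyme called lower, against 0.803% of all genes, at 1.52, 1.86, 1.19 and 1.1996 in FapKO hearts and 3.91, 1.97, 1.69 and 2.24 in MI hearts (-0.76 ± 0.25, adjusted p = 0.0075, edgeR). The groups overlapped, and the call rested on MI replicate 1, without which it stood at -0.44 (adjusted p = 0.084). Loxl1, Loxl2, Plod1, Plod3 and P4ha1 were higher per collagen, 5 of 10 against 80.8% of all genes (81.6% called either way), with Plod1 at 8.71 to 12.98 in FapKO hearts and 3.51 to 5.59 in MI hearts (1.21 ± 0.24). Loxl2 (0.52) was lost without FapKO replicate 1 (0.45, adjusted p = 0.070) or 4 (0.46, adjusted p = 0.071), and Plod3 (0.53) without FapKO replicate 3 (0.49, adjusted p = 0.056), MI replicate 2 (0.41, adjusted p = 0.068) or MI replicate 3 (0.51, adjusted p = 0.053). Both calls were also lost with no filter on low counts. Loxl4 (0.58) was called without MI replicate 3 (0.95, adjusted p = 0.030). With the replicate number as a block, Plod2 was called higher in the fit of all hearts (0.40, adjusted p = 0.0498) but not in that of FapKO and MI hearts alone (0.40, adjusted p = 0.089).

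In FAPI against MI hearts, Loxl1, Plod1, Plod2, Plod3 and P4ha1 were higher per collagen, 5 of 10 against 65.4% of all genes (66.3% called either way), and 0 were lower. Lox had 22.3, 21.8, 29.6 and 34.1 in FAPI hearts, against 16.7, 14.4, 19.98 and 24.1 in MI hearts (0.52 ± 0.24, adjusted p = 0.058, edgeR). It was called without FAPI replicate 1 (0.60, adjusted p = 0.045), FAPI replicate 2 (0.61, adjusted p = 0.045) or MI replicate 4 (0.66, adjusted p = 0.029). Loxl2 (0.44) was called without FAPI replicate 3 (0.54, adjusted p = 0.035). Plod3 (0.52) was lost without FAPI replicate 2 (0.50, adjusted p = 0.062) or 4 (0.41, adjusted p = 0.075), or MI replicate 2 (0.40, adjusted p = 0.10) or 3 (0.49, adjusted p = 0.070). P4ha3 did not pass, at 1.63 to 2.15 in FAPI hearts and 1.69 to 3.91 in MI hearts (-0.39, interval -0.87 to 0.09), but was lower against 8 fibroblast markers (-1.20, adjusted p = 0.0088).

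In the culture experiment, 3D-culture replicate 2 stood apart from the other fibroblast libraries. It held 96819 counts of Col1a1, against 25694 and 34558 in 3D-culture replicates 1 and 3, and the 3 collagen genes took 0.943% of its counts, against 0.415% and 0.451% in those libraries. Its Col1a2 level of 1202 CPM lay beside 1193 and 1273 CPM. Markers of the labelled cells were present, with 8 of 8 fibroblast markers counted in both groups. Their sum was 8624 to 9393 CPM in co-culture and 1774 to 1943 CPM in 3D-culture fibroblasts. Of 7 tested, 5 were higher and 2 lower in co-culture, and the list holds Pdgfra, on which co-culture cells were sorted. Macrophage markers summed to 369 to 485 CPM in co-culture and 794 to 1316 CPM in 3D-culture, with all 8 tested lower in co-culture. Mural cell markers summed to 563 to 666 CPM in co-culture and 1510 to 2565 CPM in 3D-culture. Of 5 tested, 4 were lower and 1 higher in co-culture. The part of these differences in the results below was not tested. Endothelial markers were low, at 19.9 to 23.2 CPM in co-culture and 16.5 to 18.6 CPM in 3D-culture.

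Co-culture against 3D-culture fibroblasts gave calls in both directions, at shares close to those of all genes. Plod1, Loxl3 and Loxl1 rose, Lox, P4ha1, Plod2 and Loxl2 fell, and Loxl4, Plod3 and P4ha3 did not pass the test. The 3 called higher stand against 30.3% and the 4 called lower against 29.5% of the 12293 genes tested (59.8% in all), and the 7 with groups apart against 67.0%. The median log2 fold change was -0.10 over the enzymes and -0.06 over all genes.

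Plod1, which passed the test in none of the heart comparisons on this scale, had 147, 158 and 183 CPM in co-culture, against 40.9, 34.6 and 42.0 CPM in 3D-culture. The groups were far apart, differing by 2.05 ± 0.13 on the log2 scale (SE, adjusted p = 4.2e-06, edgeR). Loxl3 had 73.7, 83.4 and 77.4 CPM in co-culture, against 31.2, 37.5 and 32.97 CPM in 3D-culture (1.21 ± 0.12, adjusted p = 4.6e-05). Loxl1 had 668, 636 and 845 CPM in co-culture, against 407, 476 and 500.2 CPM in 3D-culture (0.64 ± 0.14, adjusted p = 0.0041). For Loxl1 the call was lost with total-count scaling (0.30, adjusted p = 0.17), which moved the median of all genes from -0.06 to -0.41 and left 32.7% of called genes higher instead of 50.7%.

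Lox had 311, 289 and 284 CPM in co-culture, against 753, 629 and 656 CPM in 3D-culture, a difference of -1.20 ± 0.11 on the log2 scale (adjusted p = 3.1e-05). P4ha1 had 77.6, 70.4 and 72.8 CPM in co-culture, against 142, 132 and 137 CPM in 3D-culture (-0.90 ± 0.10, adjusted p = 1.0e-04). Plod2 had 57.2, 65.5 and 68.8 CPM in co-culture, against 124, 84.9 and 138 CPM in 3D-culture (-0.86 ± 0.18, adjusted p = 0.0033). In each, all co-culture libraries were below all 3D-culture libraries, and 3D-culture replicate 2 was the lowest of its group for Plod2. Loxl2 had 26.9, 26.4 and 29.0 CPM in co-culture, against 37.8, 51.3 and 44.2 CPM in 3D-culture (-0.69 ± 0.14, adjusted p = 0.0029). P4ha3 had 7.51, 7.60 and 8.21 CPM in co-culture and 8.91, 9.63 and 4.99 CPM in 3D-culture, with an approximate 95% interval of -0.60 to 0.60. Plod3 had 70.1, 75.1 and 103 CPM in co-culture and 79.0, 63.8 and 81.8 CPM in 3D-culture, with an interval of -0.18 to 0.48. Loxl4 had 8 to 12 counts per library in co-culture and 28 to 62 in 3D-culture (-0.19, interval -0.86 to 0.47). Without 3D-culture replicate 2, 7 enzymes were called, where fits without 1 library called 6405 to 7808 of all genes.

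**Figure D4:**
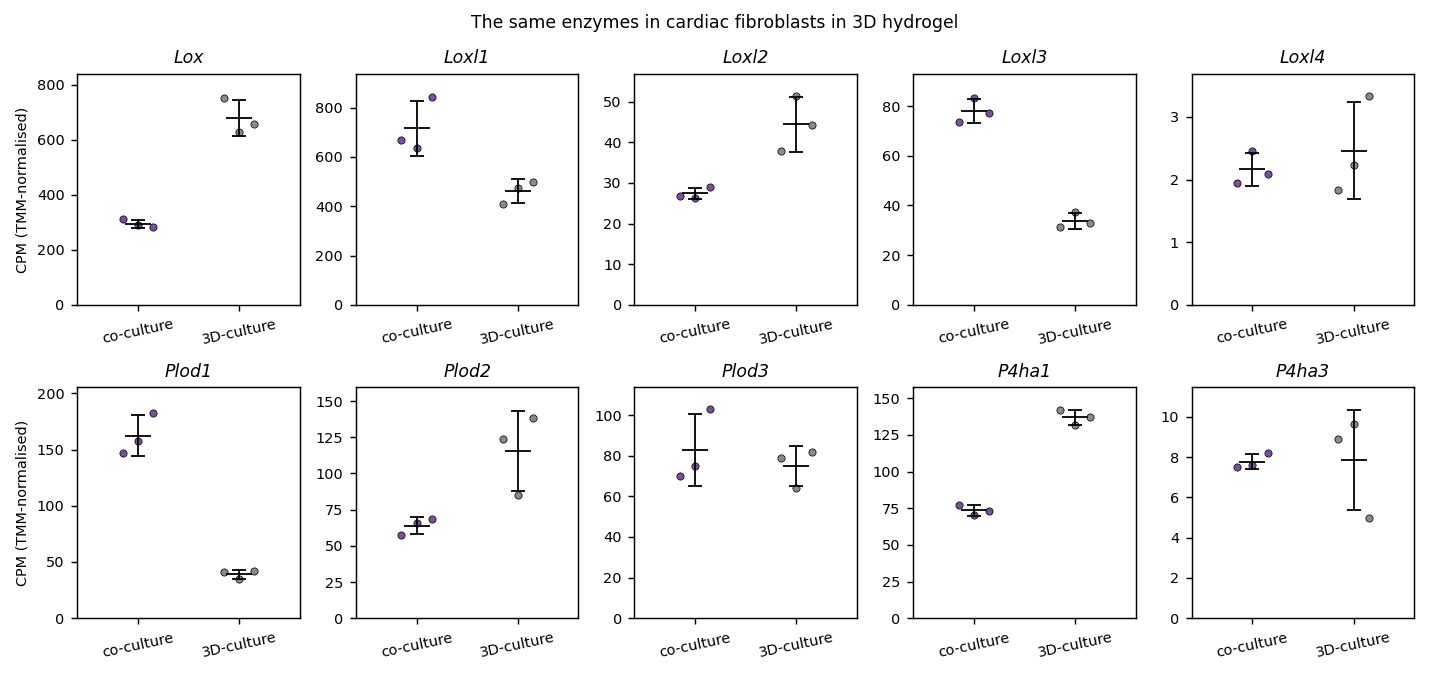
TMM-normalised CPM of each enzyme in every fibroblast library, with the mean and SD as bars. Plod1 at 147 to 183 CPM in co-culture is above 34.6 to 42.0 CPM in 3D-culture, and Lox at 284 to 311 CPM in co-culture is below 629 to 753 CPM in 3D-culture.

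Per kilobase, Loxl1 led in co-culture at 217 ± 34.2 CPM per kb, ahead of Lox at 61.7 ± 3.03 CPM per kb. In 3D-culture the pair did not differ beyond their spread, with Lox at 142 ± 13.6 and Loxl1 at 139.8 ± 14.6 CPM per kb (SD, n = 3). That likeness rests on the division by exon length, since in CPM Lox was above Loxl1 there, at 629 to 753 against 407 to 500.2 CPM. Whether the counts rise with exon length was not tested. Prolyl hydroxylase partners did not move as one, with P4ha2 lower in co-culture (-0.54, adjusted p = 0.0029) and P4hb at 0.05 (adjusted p = 0.80). Of 14 tested maturation genes, 4 were higher and 4 lower. Ppib, a prolyl isomerase, averaged 36.0 ± 1.28 CPM in co-culture and 5.92 ± 1.32 CPM in 3D-culture, and Tmem38b, an ion channel of the endoplasmic reticulum, averaged 67.0 ± 6.28 CPM in co-culture and 20.8 ± 2.97 CPM in 3D-culture. Of 5 tested processing genes, 3 were higher, with Adamts2 at 307 ± 28.1 CPM in co-culture and 91.1 ± 13.3 CPM in 3D-culture, and Pcolce, an enhancer of Bmp1, at 1757 ± 116 CPM in co-culture and 558 ± 97.0 CPM in 3D-culture. Of 7 lysyl oxidase substrates and partners, 4 were lower and 1 higher, with Postn at 56.4 ± 1.90 CPM in co-culture and 142 ± 14.1 CPM in 3D-culture, and Efemp2 at 629 ± 27.2 CPM in co-culture and 311 ± 19.9 CPM in 3D-culture. Of 7 fibrillar collagens, 1 was higher, Col5a3, at 10.6 ± 3.64 CPM in co-culture and 1.46 ± 0.43 CPM in 3D-culture, and 1 lower, Col5a2, at 197 ± 9.97 CPM in co-culture and 317 ± 21.8 CPM in 3D-culture. Of 16 hypoxia-induced genes, 3 were higher and 7 lower, with Bnip3, a mitophagy receptor, at 36.1 ± 2.44 CPM in co-culture and 14.0 ± 2.52 CPM in 3D-culture, and Ero1a, an oxidase of protein folding, at 38.0 ± 2.90 CPM in co-culture and 96.8 ± 6.75 CPM in 3D-culture (SD, n = 3 each).

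Per 1000 collagen counts, 1 of 10 enzymes was called in co-culture against 3D-culture, Plod1, at 31.4, 40.9 and 41.4 in co-culture and 11.996, 3.57 and 11.1 in 3D-culture (2.09 ± 0.54, adjusted p = 0.0016, edgeR). Of all genes tested, 13.1% were called higher and 5.66% lower. That count turned on 3D-culture replicate 2. Without it 7 enzymes were called, and 7689 of all genes, against 2302 with all libraries. Beside Plod1, Loxl1 (0.40) and Loxl3 (1.03) were higher and Lox (-1.52), Plod2 (-1.29), P4ha1 (-1.19) and Loxl2 (-0.83) lower, at adjusted p of 6.5e-17 to 0.038.

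Likeness of pattern was measured over the 15 hearts, as the root mean square difference between 2 genes' log2 CPM after each was centred on its own mean. Lox was nearest to Col5a2, a chain of fibrillar collagen V (0.10), and Dkk3 (0.18). Loxl1 was nearest to Fbn1, the microfibril protein fibrillin 1 (0.11), and Thbs3 (0.14). Plod3 was nearest to Layn (0.11) and Tmed3 (0.11), Plod1 to Tprkb (0.07) and Slc12a4 (0.08), and P4ha1 to Slc35a2 (0.15) and Lgals1 (0.18). Plod2 was nearest to Fndc1 (0.17) and Sbno2 (0.18), Loxl3 to Ddah1 (0.18) and fibronectin, Fn1 (0.19), and Loxl2 to Ckap4 (0.21) and Thbs3 (0.21). P4ha3 was nearest to Ms4a7, a macrophage membrane gene (0.26), and Thbs2 (0.31), and Loxl4 to Igfbp7 (0.32) and Sbno2 (0.33). Among the enzymes themselves, P4ha1 and Plod3 were the nearest pair (0.24), and Plod1 and P4ha3 the farthest (1.12). The hearts fall into groups, so these distances carry mainly the differences between groups.

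Some counts may have gained or lost reads over exons shared with a neighbour on the opposite strand. The strand setting of the counting is not given in the sources used here. Loxl3 shares 535 exon bases with Htra2 (11.6% of its exon bases) and Plod3 shares 529 with Znhit1 (11.7%). Htra2 had at most 92 counts in any library, fewer than the lowest Loxl3 count of 95, and rose in co-culture by a log2 fold change of 1.90 (adjusted p = 0.0025). Znhit1 had up to 3195 counts, fell in MI against sham hearts (-0.46, adjusted p = 0.0031), where Plod3 rose, and rose in co-culture (0.78, adjusted p = 4.8e-04). Plod2 shares 346 bases with Gm38391, which had at most 58 counts, and Loxl2 shares 301 with Gm27177, which had 0.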

How the data were processed

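Gene expression was measured by RNA-seq in 15 heart and 6 fibroblast libraries made by Smart-seq2 in a modified form with molecular barcodes, per the labels' protocols. The submitters' processing notes name STAR, HTSeq and the build mm10, with versions not given in the sources used here. The deposited values are raw counts per gene, with 53801 gene rows in each library and 0 rows that name no gene. Only the fibroblast file names are marked for removal of duplicates, so the experiments were not compared. Gene IDs were matched without version to GENCODE M21 (GRCm38) symbols (53706 rows). The 6 columns of a series-wide table were not used, since their names match no sample's labels.

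Counts were fitted with edgeR 4.0.16 in R 4.3.3 (filterByExpr, TMM, quasi-likelihood F test, Benjamini-Hochberg adjustment over all genes tested, threshold 0.05). All 15 hearts shared 1 model with a coefficient for each group, the 6 fibroblast libraries another. CPM are scaled with TMM, whose factors were 0.929 to 1.14 (FAPI), 0.888 to 0.986 (FapKO), 1.24 to 1.55 (MI) and 0.626 to 0.697 (sham). Errors of means are SD. SE of log2 fold changes is approximate, the absolute change divided by the square root of F, and intervals are 1.96 SE either side. Ratios to collagen replaced library size by the summed counts of 3 collagen genes. Likeness used genes of at least 10 CPM and a prior count of 2. Depth was 18474138 to 37287355 counts in hearts and 4735337 to 15650221 in fibroblasts, and no 2 replicates were copies (chi-square per degree of freedom 3.35 to 198).

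Genes named beside the enzymes were the 2 members of each list with the smallest p in a comparison, P4ha2, P4hb, the 3 scaling collagens and the 2 nearest genes by likeness. Genes whose exons overlap an enzyme, marker sums and Fap are given as checks. Enzymes and lists were chosen with earlier results of these data known. Alternatives were RLE factors, total-count scaling, other filters, DESeq2 1.42.0, limma-voom (limma 3.58.1), a replicate block, fits of only the groups compared, marker levels as covariates, 8 fibroblast markers as the ratio's scale, and each library left out. Deviations from the group means correlated over 0.1 in all 4 same-numbered pairs of FapKO and MI hearts (0.12 to 0.50) and in no other comparison's full set of pairs. This pairing comes from the data, since the labels tie no numbers together. The procedure was tested on simulated data.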

Additional observations from a re-analysis of the deposited data

How the results depend on the processing

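Values of single enzymes were recomputed under 1183 combinations of result and setting on the CPM scale and 420 on the collagen scale. In 1098 and 355 of them direction and side of the threshold stayed, a change of sign counting only where a value was called before or after. Leaving out 1 library at a time gave 3 to 7 enzymes called in FAPI against FapKO hearts (5 with all libraries), 1 to 3 in FAPI against MI hearts (2), and 1 to 7 per collagen in co-culture against 3D-culture (1). All genes called ranged from 1125 to 2920 (2247), 3359 to 5495 (5081) and 1017 to 7689 (2302) in these comparisons. Counts of genes moved over 1.5 times without FapKO replicate 3 (1125) or 1 (1430) or FAPI replicate 3 (1197) or 1 (1352) in the first, without FAPI replicate 4 (3359) in the next, and in the last without any library but 3D-culture replicate 1 (1017, 1027, 1130, 1255 and, without 3D-culture replicate 2, 7689).

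When the cardiomyocyte marker level was a covariate, 3 enzymes were called in MI against sham, 0 in FAPI against MI, 0 in FapKO against MI and 3 in FAPI against FapKO hearts, with 612, 23, 91 and 1209 genes called, and 4435 and 4159 genes in FAPI and FapKO against sham hearts. Of enzymes called without the covariate, Loxl3 (0.21) and P4ha3 (0.36) in FAPI against MI hearts and Plod2 (0.12) in FapKO against MI hearts then had the opposite sign. Enzymes with no call in either fit could turn too, among them Lox (0.19), Loxl1 (0.13) and Loxl2 (0.17) in FAPI against MI hearts. Over all settings in that comparison, Plod2 ran from -0.52 to 0.61 and Plod3 from -0.67 to 0.22. With the fibroblast marker level as a covariate, 4 enzymes were called in FapKO against sham hearts, and 3813, 834, 418 and 1033 genes in MI, FAPI and FapKO against sham and FAPI against FapKO hearts. Total-count scaling gave 8 enzymes and 9933 genes in FAPI against MI hearts, and Plod1 at 1.09 in MI against sham, -0.32 in FAPI against MI and 0.54 in FapKO against sham hearts. Fitting only the groups compared left 1 enzyme in FAPI against MI hearts, since Loxl3 was lost (-0.49, adjusted p = 0.062). Among tools and filters, limma-voom lost P4ha3 in FapKO against sham hearts (1.03, adjusted p = 0.085) and Loxl4 in FAPI against sham hearts (1.42, adjusted p = 0.053). In FAPI against FapKO hearts, Loxl1 was lost with RLE factors (0.37, adjusted p = 0.052) and DESeq2 called P4ha3 (0.84, adjusted p = 0.039). In FapKO against MI hearts, limma-voom called P4ha1 (-0.36, adjusted p = 0.048). Both alternative filters on low counts and the fit of only the groups compared called it as well. With no filter on low counts, 3 enzymes were called per collagen in FAPI against MI hearts.

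With 8 fibroblast markers as the scale in place of collagen, signs turned for several enzymes called on either scale. In MI against sham hearts these were Loxl1 (1.10), Loxl2 (1.22), Plod2 (0.91), Plod3 (0.40) and P4ha1 (0.015). In FAPI against MI hearts they were Loxl1 (-0.16), Plod2 (-0.16), Plod3 (-0.29) and P4ha1 (-0.019), and in FapKO against MI hearts Loxl1 (-0.27), Loxl2 (-0.45), Plod2 (-0.58), Plod3 (-0.45) and P4ha1 (-0.13). In co-culture against 3D-culture they were Loxl1 (-1.62), Loxl3 (-1.06), Plod1 (-0.21), Plod3 (-2.11) and P4ha3 (-2.25). Signs turned without a call on either scale for Lox (-0.28), Loxl2 (-0.37), Loxl3 (-0.49) and Loxl4 (-0.32) in FAPI against MI hearts. The same held for Loxl4 in MI against sham (0.98) and FapKO against MI hearts (-0.32). Calls were gained on the fibroblast marker scale by Lox, Loxl3 and P4ha3 in hearts. Of the enzymes whose signs turned, Loxl1, Loxl2, Plod2 and Plod3 were called higher in MI against sham hearts, and Plod2 lower in FapKO against MI hearts. Plod1 was lost in FAPI (0.07, adjusted p = 0.73) and FapKO (0.23, adjusted p = 0.14) against MI hearts. Lox, Loxl2, Loxl4, Plod2 and P4ha1 were called lower in co-culture (-3.46 to -2.45), as were Loxl1, Loxl3, Plod3 and P4ha3 with signs turned. On that scale 1 enzyme was called in FAPI against MI hearts and 9 in co-culture against 3D-culture, with 4245, 7646 and 11460 genes in FAPI against MI, FapKO against MI and co-culture against 3D-culture. The cause of these changes was not tested, beyond what the scales themselves set.

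Replicate numbers met the rule for pairs only between FapKO and MI hearts. Over all groups, 10 of 24 pairs with the same number had correlated deviations over 0.1 (range -0.57 to 0.50) and 5 correlated best with their own number. A replicate block called P4ha3 in FAPI against FapKO hearts (0.86, adjusted p = 0.016), Lox per collagen in FAPI against MI hearts (0.52, adjusted p = 0.040) and Plod2 per collagen in FapKO against MI hearts (0.40, adjusted p = 0.0498), and left 1048 genes called per collagen in co-culture against 3D-culture. It changed no other call of an enzyme. A block in a fit of FapKO and MI hearts alone, chosen after seeing the data, called 8 enzymes and 8324 genes, P4ha1 among them (-0.36, adjusted p = 0.0497), and 6 and 13979 per collagen. Depth limits Loxl4, with 2 to 62 counts per library, and the number of libraries limits the rest.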
